A study of Mus musculus with 10 samples.

Results

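The 37 genes described here make up the folding and quality-control machinery of the endoplasmic reticulum (ER) and the signalling pathway that adjusts it, the unfolded protein response. They were taken as a list of gene symbols, and all 37 were present among the 19782 genes of the deposited table. The list held 11 chaperones and their cofactors, 4 disulfide isomerases, 6 factors of ER-associated degradation, 4 stress sensors, 3 transcription factors, 4 targets of the transcription factor ATF4, and 5 subunits of the translocon and of its associated complex. RNA came from mouse hippocampal microglia (brain macrophages) with the sorting phenotype CD45low CD11b+. The wild-type group was 4 libraries from mice on normal diet. The second group, called 5xFAD control, was 3 libraries from 5xFAD mice on normal diet. This transgenic line is a model of Alzheimer disease, and its transgenes are driven by the neuronal Thy1 promoter. The third group, called 5xFAD repopulated, was 3 libraries from 5xFAD mice given PLX3397, an inhibitor of the CSF1 receptor that microglia need for survival. The drug was given in chow at 290 mg/kg for 1 month from 4 months of age, and normal diet for 1 month then let microglia return. No strain is given for any group, and an age is given for the drug-treated mice alone. Every repopulated library came from mice that had both the drug and the return of microglia, so these cannot be told apart. Repopulated microglia of wild-type mice were not analysed here, so against wild type neither can be told apart from the transgenes.

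Proteins bound for the cell surface, the lysosome or secretion enter the ER through the SEC61 translocon and fold there with the help of chaperones and disulfide isomerases, and proteins that fail to fold are returned to the cytosol and degraded. When unfolded protein builds up, the sensors ATF6, IRE1 (Ern1) and PERK (Eif2ak3) are released from the chaperone BiP (Hspa5). ATF6 and the spliced form of XBP1 then switch on chaperone and degradation genes, while PERK phosphorylates the translation factor eIF2 alpha, which slows general translation and favours translation of ATF4. Microglia are secretory and highly lysosomal cells, and so carry much of this machinery at rest. Xbp1 splicing, ATF6 cleavage and ATF4 translation occur after transcription, and gene-level counts do not measure them.

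The DNA sequence that ties many of these genes together is the ER stress element, bound by ATF6 with the factor NF-Y. RefSeq promoters on GRCm38.p6, from 250 bases before to 50 bases after the start site, were found for 32 of the 37 members and 27025 genes in all. Hyou1, Manf, Derl1, Atf6 and Sec61a1 had no entry. The letters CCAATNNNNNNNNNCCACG, searched on both strands, were in the promoters of 37 genes (0.137% of all promoters) and of 8 members (25.0% of the 32). Each match is printed in the direction in which the element reads, with its fixed letters in capitals and 10 bases on either side, because the members with this element include both genes that changed and genes that did not.
Hspa5 (chr2:34772015-34772053, plus strand, element 65 to 47 bases before the start site): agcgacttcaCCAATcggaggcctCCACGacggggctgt
Hsp90b1 (chr10:86705523-86705561, plus strand, element 107 to 89 bases before the start site): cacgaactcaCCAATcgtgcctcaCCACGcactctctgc
Hsp90b1 (chr10:86705628-86705666, minus strand, element 212 to 194 bases before the start site): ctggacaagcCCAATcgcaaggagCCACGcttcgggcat
Calr (chr8:84847065-84847103, plus strand, element 162 to 144 bases before the start site): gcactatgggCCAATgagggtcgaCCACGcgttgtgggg
Canx (chr11:50325790-50325828, minus strand, element 145 to 127 bases before the start site): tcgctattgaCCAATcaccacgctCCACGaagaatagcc
Creld2 (chr15:88819510-88819548, minus strand, element 126 to 108 bases before the start site): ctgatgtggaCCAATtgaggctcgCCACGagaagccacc
Dnajc3 (chr14:118937817-118937855, plus strand, element 105 to 87 bases before the start site): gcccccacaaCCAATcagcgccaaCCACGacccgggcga
Pdia6 (chr12:17266481-17266519, plus strand, element 98 to 80 bases before the start site): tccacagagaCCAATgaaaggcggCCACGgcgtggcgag
Syvn1 (chr19:6046522-6046560, plus strand, element 44 to 26 bases before the start site): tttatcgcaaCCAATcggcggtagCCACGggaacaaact

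A second form, ER stress element II (ATTGGNCCACG), was in 12 promoters of all genes (0.044%), with Herpud1 and Dnajb11 among the members. The Dnajb11 match lay after the start site and is not printed. Herpud1 carried its match close to the start site.
Herpud1 (chr8:94386367-94386397, plus strand, element 52 to 42 bases before the start site): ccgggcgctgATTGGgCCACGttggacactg

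The core of the unfolded protein response element, TGACGTG, was in 601 promoters (2.224%), and Hspa5 was the 1 member with it. The core of the amino acid response element to which ATF4 binds, TGATGNAA, was in 1219 promoters (4.511%) and in those of Asns, Chac1, Herpud1 and Trib3. The Trib3 match lay after the start site. These are the other matches, printed in the same way.
Hspa5 (chr2:34771923-34771949, plus strand, element 157 to 151 bases before the start site): ggcgtagcaaTGACGTGagttgcggag
Asns (chr6:7693215-7693242, minus strand, element 23 to 16 bases before the start site): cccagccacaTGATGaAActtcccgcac
Chac1 (chr2:119351039-119351066, minus strand, element 193 to 186 bases before the start site): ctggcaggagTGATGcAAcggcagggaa
Herpud1 (chr8:94386307-94386334, minus strand, element 112 to 105 bases before the start site): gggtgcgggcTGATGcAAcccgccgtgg

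The 250 bases before the start site are given in full for Canx, the chaperone gene with the largest change, and for Hspa5, the textbook target of this response, both in the direction of the gene. Capitals again mark the fixed letters of the ER stress element.
Canx (chr11:50325674-50325923, minus strand): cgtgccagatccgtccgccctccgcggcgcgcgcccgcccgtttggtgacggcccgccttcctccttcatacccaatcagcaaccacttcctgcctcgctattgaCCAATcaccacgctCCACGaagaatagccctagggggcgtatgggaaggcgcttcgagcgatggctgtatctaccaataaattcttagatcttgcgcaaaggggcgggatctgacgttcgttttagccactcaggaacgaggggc
Hspa5 (chr2:34771840-34772089, plus strand): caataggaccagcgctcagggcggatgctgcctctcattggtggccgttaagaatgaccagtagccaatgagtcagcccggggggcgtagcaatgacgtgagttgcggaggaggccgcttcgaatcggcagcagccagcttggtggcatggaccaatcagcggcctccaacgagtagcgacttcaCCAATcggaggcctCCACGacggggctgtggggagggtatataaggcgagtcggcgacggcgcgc

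Library totals lay between 18501136 and 23286814 estimated counts, and 12505 genes passed the filter on low counts. In 3 libraries (wild-type 2 and control 1 and 3) the summed level of 4 Y-linked genes was 5.12 to 16.01 CPM without scaling factors, against 341.9 to 483.8 in the other libraries (the 3 are called low-Y libraries here). Wild-type 3 stood apart on the second principal component (-67.00, against 20.90 to 52.95 in the other wild-type libraries) and held more neuronal marker RNA (67.3 CPM summed over 9 genes, against 4.29 to 13.2 in all other libraries). It also held the most erythrocyte (281.1 CPM over 5 genes, against at most 20.69), astrocyte (555 CPM over 7, against at most 314.9) and oligodendrocyte marker RNA (138.3 CPM over 7, against at most 88.9). Summed levels of 10 microglial markers were high in every library, from 43120 to 60910 CPM. Whether the libraries of 1 group came from different animals is not stated. By their Y-linked levels, the wild-type libraries did not all come from the same animals, nor did the control libraries. No repopulated library was low-Y, so Y-linked status was not balanced across the groups. The p-values reflect the spread among these libraries, which beyond such differences could be technical. In bulk RNA, fewer cells of a type and less RNA per cell cannot be told apart.

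Levels between genes were compared on the deposited TPM, which allow for gene length. Canx, encoding the membrane chaperone calnexin that binds newly made glycoproteins, was the most abundant member, at 1689 ± 292 TPM in wild type (SD, n = 4), 3195 ± 1053 TPM in 5xFAD control (n = 3) and 1498 ± 257 TPM in 5xFAD repopulated (n = 3). Next by mean over the 10 libraries came Hsp90b1 (GRP94), Pdia3 and Hspa5, with wild-type levels of 928 ± 129, 1017 ± 172 and 952 ± 177 TPM. In wild type these 3 did not differ beyond their spread. The top 11 members, down to Pdia6, lay above the 98th percentile of all genes. The sensors were far lower, with Eif2ak3 at 15.9 ± 3.499, Atf6 at 10.7 ± 1.77, Eif2ak4 at 7.05 ± 0.882 and Ern1 at 0.453 ± 0.282 TPM in wild type. Trib3 and Chac1 were the lowest, under 1 TPM in every library.

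**Figure D1:**
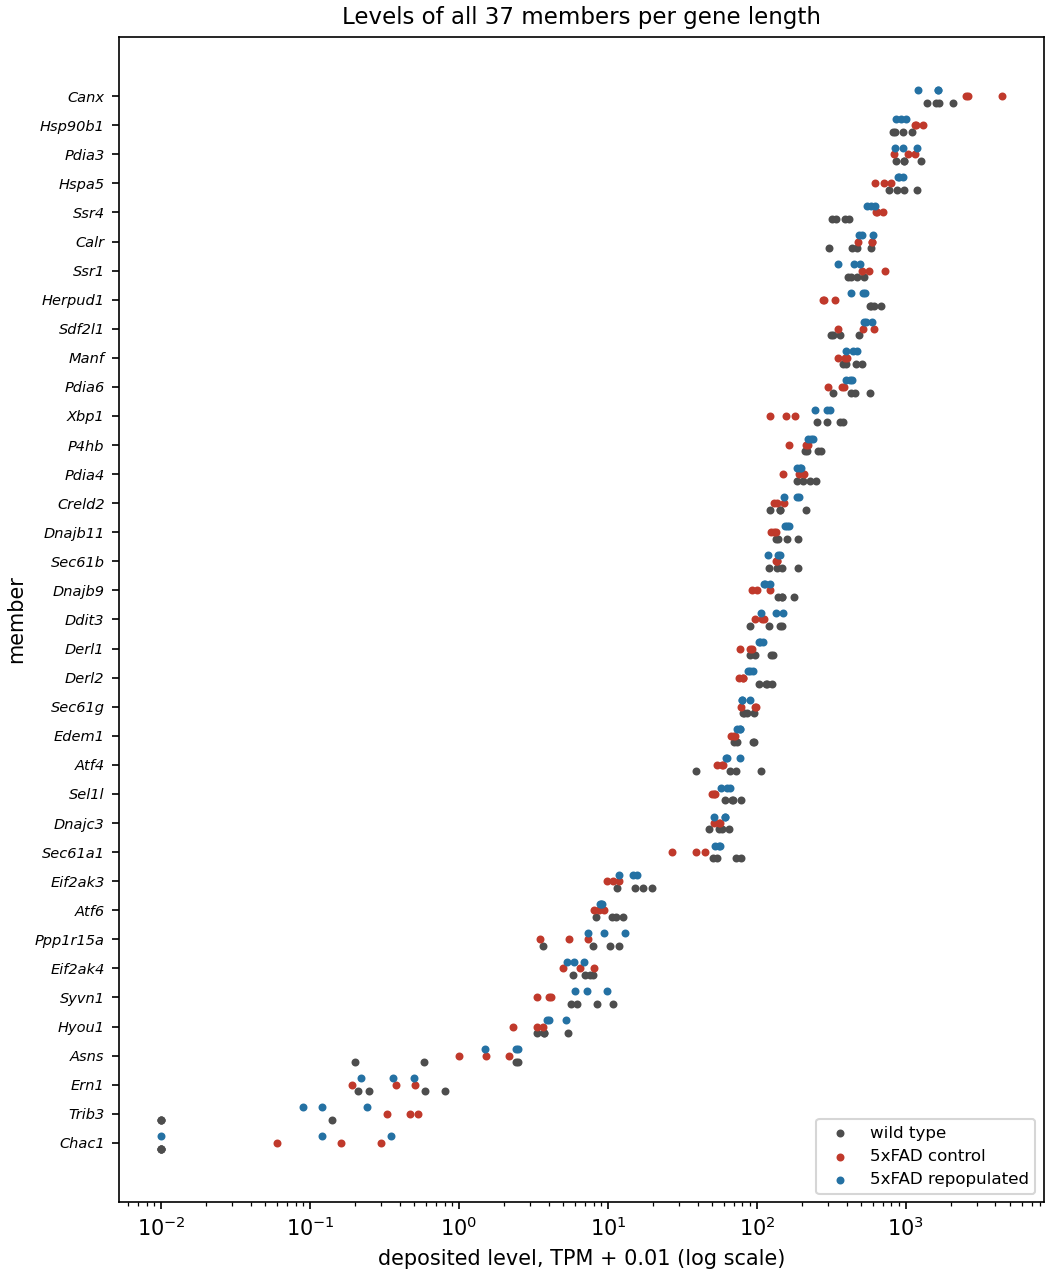
Deposited TPM of the 37 members in each of the 10 libraries (1 point a library, log axis, with 0.01 added so that 0 can be drawn), ordered by mean level and coloured by group. Levels run from Canx at 1689 ± 292 TPM in wild type down to Chac1, listed at 0 there, and the sensors lie in the lower part.

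The members together took 1.29% to 1.60% of counts in wild type, 1.84% to 2.19% in control and 1.39% to 1.60% in repopulated libraries. Without Canx the ranges overlapped, at 0.965% to 1.22%, 1.05% to 1.16% and 1.07% to 1.16%. Canx alone took 0.327% to 0.514% of wild-type counts and 0.682% to 1.14% of control counts.

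The first comparison asked how this machinery differed in microglia of 5xFAD mice on normal diet from that of wild type. The change was uneven across the pathway. The chaperone genes Canx, Hsp90b1, Calr and Sdf2l1 and the translocon-associated genes Ssr1 and Ssr4 were higher in control, Xbp1 and Herpud1 were lower, and Hspa5 and all 4 sensors did not pass the test. Levels are library-scaled counts with TMM factors (CPM), folds are from edgeR's quasi-likelihood fit, and called means a Benjamini-Hochberg adjusted p under 0.05. Of 35 members tested 8 were called (22.9%), against 18.1% of all genes tested. The share called in total was thus near that of all genes. By direction, 6 of 35 members were called higher, where 10.1% of all genes were, and 2 of 35 lower, where 8.04% were. The median log2 fold change was 0.09 over the members and -0.06 over all genes tested. An unadjusted edgeR p under 0.05 was found for 12 of 35 members and for 3974 of the 12505 genes tested.

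Canx stood at 2914, 4986, 4175 and 3585 CPM in wild-type 1 to 4 and at 7793, 12404 and 7472 CPM in control 1 to 3. Every control library was above every wild-type library, and control 2 was highest by a wide margin. The fold was 2.35 (log2 fold change 1.24, SE 0.22, edgeR adjusted p = 0.0014). With control 2 left out the log2 fold change was 0.97, and with the 3 low-Y libraries left out, so that control 2 stood alone for its group, it was 1.81. Both were still called.

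Hsp90b1 encodes GRP94, the HSP90 of the ER lumen, which folds integrins and Toll-like receptors. Its level was 1101, 1426, 1282 and 1538 CPM in wild-type 1 to 4 and 2142, 2289.7 and 2152 CPM in control 1 to 3. The control libraries lay close together and above all 4 wild-type libraries, 1.64-fold higher (log2 fold change 0.72, SE 0.15, edgeR adjusted p = 0.00375).

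Calr encodes calreticulin, the soluble counterpart of calnexin. It stood at 417, 437, 325 and 551 CPM in the wild-type libraries and 743, 573 and 741 CPM in control, 1.58-fold higher (log2 fold change 0.66, SE 0.17, edgeR adjusted p = 0.0127). The groups did not overlap, but control 2 was close to wild-type 4. Sdf2l1, a partner of the BiP cycle, stood at 143, 167, 196 and 233 CPM in wild type and 329.6, 213 and 387 CPM in control, 1.68-fold higher (log2 fold change 0.75, SE 0.19, edgeR adjusted p = 0.0142). Here control 2 lay within the wild-type range, while control 1 and control 3, in which Y-linked transcripts were near absent, lay above it. Both calls were lost with control 1 left out (adjusted p = 0.0654 for Calr and 0.0618 for Sdf2l1), with control 3 left out (0.0502 and 0.0806) and with Y-linked status in the model (0.0627 and 0.0994). With control 2 alone for its group the edgeR log2 fold changes were 0.42 for Calr and 0.17 for Sdf2l1.

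Hspa5, encoding BiP, the chaperone whose rise is the usual sign of ER stress, stood at 1038, 1338, 1113 and 1521 CPM in wild-type 1 to 4 and 1209.6, 1003 and 1329 CPM in control 1 to 3. The ranges overlapped almost fully, and the log2 fold change was -0.09 (SE 0.16, edgeR adjusted p = 0.745). The other chaperones and cofactors, Hyou1, Dnajb9, Dnajb11, Dnajc3, Manf and Creld2, were not called, with log2 fold changes from -0.21 (Dnajb9) to 0.28 (Dnajc3). BiP's nucleotide exchange factor Hyou1 was a low transcript, at 9.69 ± 2.05 CPM in wild type and 9.45 ± 2.45 CPM in control. Among the chaperones 4 of 11 were therefore called, all higher, where 10.1% of all genes tested were called higher.

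All 4 disulfide isomerases, which form and rearrange disulfide bonds in the ER, missed the threshold. Pdia3, the isomerase that works with calnexin and calreticulin on glycoproteins, stood at 1401 ± 252 CPM in wild type and 1751 ± 322 CPM in control (log2 fold change 0.32, edgeR adjusted p = 0.258). For Pdia4, Pdia6 and P4hb the log2 fold changes were 0.10, 0.01 and 0.10.

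At the translocon, Ssr4 and Ssr1 encode the delta and alpha subunits of the translocon-associated protein complex, which sits beside SEC61 and helps some proteins across. Ssr4 stood at 95.4, 131, 147 and 108 CPM in wild type and 297, 251 and 263 CPM in control. The groups were far apart, and Ssr4 had the smallest adjusted p of all members in this comparison (2.24-fold, log2 fold change 1.17, SE 0.15, edgeR adjusted p = 8.92e-05). Ssr1 stood at 1010.4, 1452, 1343 and 1124 CPM in wild type and 1924, 2347 and 1718 CPM in control, 1.62-fold higher (log2 fold change 0.70, SE 0.18, edgeR adjusted p = 0.0137). Without control 2 the Ssr1 call was lost (edgeR adjusted p = 0.0576). The subunits of the channel itself were not called. Sec61a1, the pore, had a log2 fold change of -0.43 (edgeR adjusted p = 0.1004), while Sec61g and Sec61b, its small partners, had 0.42 (0.0791) and 0.21 (0.478). Sec61a1 was called lower with control 3 left out (edgeR adjusted p = 0.0455), without the low-Y libraries (log2 fold change -0.98, 0.0203), on total counts (0.0205) and on TPM in limma (0.01).

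Xbp1, the transcription factor whose messenger is spliced by IRE1, stood at 307, 430.2, 315 and 425 CPM in wild-type 1 to 4 and 232, 171 and 266 CPM in control 1 to 3. All 3 control libraries were below all 4 wild-type libraries, 1.65-fold lower (log2 fold change -0.73, SE 0.17, edgeR adjusted p = 0.00986). Herpud1, an ER membrane protein that helps assemble the degradation complex, stood at 515, 625, 620.3 and 651 CPM in wild type and 353, 337 and 420.3 CPM in control. Again the groups did not overlap, and the level was 1.63-fold lower (log2 fold change -0.70, SE 0.13, edgeR adjusted p = 0.00226). Syvn1, the ubiquitin ligase HRD1 of the same complex, was lower on average without passing the test, at 13.02 ± 2.84 CPM in wild type and 8.42 ± 1.07 CPM in control (log2 fold change -0.63, edgeR adjusted p = 0.0752). It was called with wild-type 2 (0.046) or wild-type 3 (0.044) left out. The other degradation factors, Edem1, Sel1l, Derl1 and Derl2, had log2 fold changes from -0.21 to 0.08 and were not called.

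The summed level of 11 genes induced by cell isolation was 143.0 to 273.5 CPM in wild type, 102.2 to 133.5 CPM in control and 134.9 to 288.4 CPM in repopulated libraries. None of the 11 was at 0 in every library. Repopulated 3, at 134.9 CPM, was close to control 3, at 133.5 CPM. Its Xbp1 level was 335 against 266 CPM there, and its Herpud1 level 504 against 420 CPM. The part of this list in the result was not tested. Markers of B and plasma cells, which express Xbp1 strongly, summed to 52.6 to 81.3 CPM in wild type, 41.4 to 59.5 CPM in control and 39.8 to 49.4 CPM in repopulated libraries over the 6 of 8 markers in the table, none of them at 0 in every library. Their part in the Xbp1 result was not tested either. Without wild-type 3 the edgeR log2 fold changes were -0.80 for Xbp1 and -0.69 for Herpud1.

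The sensors showed no change that passed the test. Atf6 stood at 47.2, 46.1, 37.4 and 45.3 CPM in wild type, 46.6, 41.02 and 49.6 CPM in control and 41.5, 40.2 and 45.5 CPM in repopulated libraries. Eif2ak3 stood at 43.03, 29.3, 45.7 and 35.7 CPM, 33.6, 35.2 and 30.7 CPM and 42.8, 39.2 and 34.7 CPM in the same order. Ern1 was a low transcript, with 8, 11, 38 and 27 counts in wild type, 10, 19 and 29 counts in control and 26, 19 and 12 counts in repopulated libraries. Its log2 fold change in control was -0.08 with a wide SE of 0.74 (edgeR adjusted p = 0.956). In each of the 3 comparisons the groups overlapped for all 3 genes. Eif2ak4 (GCN2), which senses uncharged transfer RNA and feeds into the same eIF2 alpha arm, had a log2 fold change of 0.19 in control (SE 0.18, edgeR adjusted p = 0.4902).

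Atf4 and its target Ddit3, which encodes the pro-apoptotic factor CHOP, did not pass the test in any of the 3 comparisons. Atf4 stood at 67.05, 47.6, 29.3 and 49.1 CPM in wild type, 52.6, 45.4 and 52.5 CPM in control and 48.5, 58.2 and 51.7 CPM in repopulated libraries. Ddit3 stood at 53.1, 49.8, 39.7 and 56.5 CPM, 55.4, 49.1 and 53.9 CPM and 57.4, 63.7 and 49.7 CPM. Control minus wild type gave log2 fold changes of 0.06 (SE 0.21) for Atf4 and 0.09 (SE 0.15) for Ddit3, with edgeR adjusted p-values of 0.879 and 0.727.

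Of the 4 further ATF4 targets, Asns (asparagine synthetase) and Ppp1r15a (GADD34, which reverses eIF2 alpha phosphorylation) were tested and not called, with log2 fold changes of 0.53 (SE 0.69) and -0.27 (SE 0.35). Trib3 and Chac1 fell under the filter. Trib3, a pseudokinase that restrains ATF4, had 0, 0, 0 and 3 counts in wild-type 1 to 4, 14, 8 and 13 in control 1 to 3 and 6, 2 and 3 in repopulated 1 to 3. All 3 control libraries held more than any wild-type library, and the pooled ratio per count of library was 13.9 (95% interval 4.38 to 70.6, which covers counting error alone). Chac1, an enzyme that breaks down glutathione, had 0 counts in all 4 wild-type libraries, 3, 1 and 6 in control and 0, 2 and 7 in repopulated libraries. For Chac1, 3 counts were taken as the upper limit for the 4 wild-type libraries combined. With counts divided by the pooled library totals, Chac1 stood at 3.97 times that limit in control. In repopulated libraries it stood at 3.57 times that limit. Counting error in the control and repopulated counts is not covered by these values, and repopulated 1 held 0 counts as wild type did. Fitted without a filter, neither passed edgeR's test in control against wild type (adjusted p = 0.135 for Trib3 and 0.128 for Chac1).

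**Figure D2:**
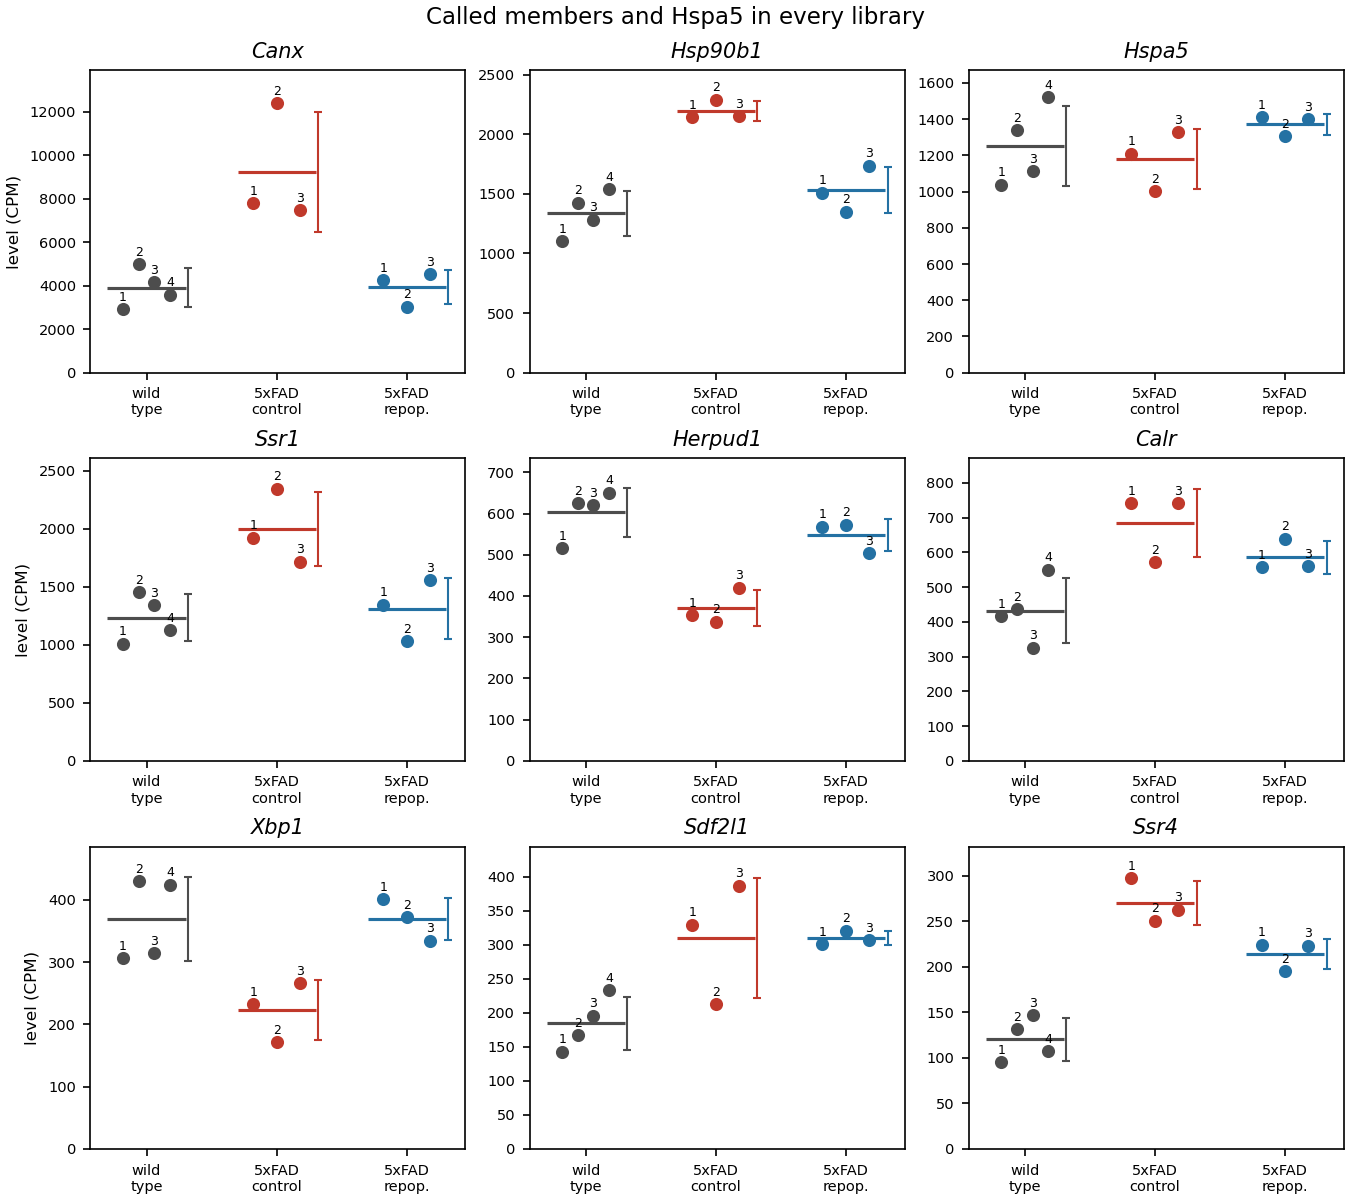
Levels in CPM (linear axis from 0) of the 8 called members and Hspa5 in each library, with numbered points for the libraries, a line for the group mean and a bar for the SD. Canx, Hsp90b1, Ssr1 and Ssr4 are higher and Xbp1 and Herpud1 lower in every control library than in any wild-type library, while the Hspa5 points overlap.

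How far these directions depend on the scale was checked on the unscaled library totals and on the deposited TPM, both chosen after seeing the data. The median log2 fold change of all genes tested, control minus wild type, was -0.27 on total counts and -0.35 on TPM, against -0.06 with TMM factors, so fold changes lay lower on those scales. The members called then split into 4 higher and 6 lower on total counts in edgeR and into 3 higher and 8 lower on TPM in limma, against 6 and 2 with TMM. Over all genes the split was 814 higher and 2265 lower on total counts, 681 and 3057 on TPM, and 1260 and 1005 with TMM. Of the 35 fold changes 12 took the other sign on total counts and 15 on TPM, none of them among the 8 called members. Canx, Hsp90b1 and Ssr4 were called higher and Xbp1 and Herpud1 lower on all of these scales. Calr, Sdf2l1 and, on TPM, Ssr1 lost their calls. Relative to the median of all genes on TPM, the log2 fold changes were 1.23 for Canx, 1.19 for Ssr4, 0.73 for Hsp90b1, -0.72 for Xbp1 and -0.69 for Herpud1. Dnajb9, Syvn1, Derl2 and Sec61a1 were called lower on both of these other scales, and Sel1l and Hspa5 on TPM. For Hspa5 the log2 fold change on TPM was -0.41 (limma adjusted p = 0.0429), and relative to that median it was -0.07.

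Of the 8 members with the ER stress element in the promoter, Canx, Hsp90b1 and Calr were called higher in control, and Hspa5, Creld2, Dnajc3, Pdia6 and Syvn1 were not called. Across all genes with the element 19 were tested, 4 were called higher and 1 lower, and the median log2 fold change was 0.01. The 4 include Canx, Hsp90b1 and Calr, and over all genes tested 10.1% were called higher and 8.04% lower. The called members Sdf2l1, Ssr1, Ssr4 and Xbp1 had none of the searched letters in the promoter window.

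Other genes of the pathway were counted on lists of 116 further genes, of which 113 were tested, with 19 called higher and 7 lower in control (23.0%, against the 18.1% of all genes). This split was 11 higher and 15 lower on total counts and 8 and 29 on TPM. Over all genes it was 814 and 2265 on total counts and 681 and 3057 on TPM. Without the low-Y libraries, with control 2 alone for its group, the lists' median log2 fold change was 0.04, against -0.13 over all genes. Among 22 further subunits of the translocon, signal peptidase and oligosaccharyltransferase, 7 were called higher and none lower by edgeR. Their median log2 fold change was 0.24, and 12 of the 22 had an unadjusted p under 0.05, against 3974 of 12505 genes tested. The split became 3 higher and 2 lower on total counts, and 3 and 4 on TPM. Without the low-Y libraries the median of these subunits was 0.29, against -0.13 over all genes. Sec63, a BiP-recruiting translocon partner, rose from 47.98 ± 2.39 to 83.3 ± 2.02 CPM (edgeR adjusted p = 0.000306), the oligosaccharyltransferase subunit Tmem258 from 63.2 ± 16.7 to 110.2 ± 14.2 CPM (0.006), and the signal peptidase subunit Spcs1 from 116 ± 22.7 to 183 ± 10.03 CPM (0.00676). Tmem258 and Spcs1 lost their calls with control 2 alone for its group, and Spcs1 also with GC correction (edgeR adjusted p = 0.129).

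Among 24 further folding factors 4 were called higher and 1 lower (median 0.16). This became 3 and 1 on total counts (median -0.05) and 2 and 2 on TPM (-0.20). Without the low-Y libraries the median was 0.10. Fkbp2 and Ppib, prolyl isomerases of the ER, rose from 124 ± 6.33 to 235 ± 23.8 CPM and from 153 ± 11.2 to 236 ± 10.4 CPM (edgeR adjusted p = 7.04e-05 and 0.00161). The oxidase Ero1a, which supplies disulfides to the isomerases, rose from 22.9 ± 2.58 to 44.2 ± 1.54 CPM (edgeR adjusted p = 0.000337). Ppib was not called on TPM (limma adjusted p = 0.101). Of 23 further degradation factors tested 1 was called higher and 3 lower (median -0.06). On TPM 1 was called higher and 6 lower, with a median of -0.395. The median was -0.02 without the low-Y libraries. The lectin Erlec1 rose 1.58-fold, the ubiquitin-conjugating enzyme Ube2g2 fell 1.78-fold and the membrane adaptor Faf2 fell 1.48-fold (edgeR adjusted p = 0.00393, 0.00428 and 0.0132). Erlec1 was not called with GC correction (0.0508), nor Faf2 without control 2 (0.0598).

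In the integrated stress response, the wider programme run through eIF2 alpha and ATF4, 4 of 20 tested genes were called higher and 1 lower (median 0.01). On total counts the split was 2 and 3 and on TPM 2 and 6, and without the low-Y libraries the median was 0.09. Psat1, an enzyme of serine synthesis, rose from 21.02 ± 6.25 to 143 ± 33.1 CPM, a log2 fold change of 2.77 with an SE of 0.21 (edgeR adjusted p = 6.26e-07). Atf3, a stress-induced transcription factor, rose from 13.1 ± 1.34 to 38.98 ± 2.39 CPM, a log2 fold change of 1.58 with an SE of 0.15 (edgeR adjusted p = 4.2e-06). The mitochondrial folate enzyme Mthfd2 rose 1.65-fold (edgeR adjusted p = 0.02298), a call that 8 of 23 other settings did not keep. Phgdh, the first enzyme of the pathway in which Psat1 acts, was called lower, at 72.1 ± 18.1 CPM in wild type and 44.9 ± 13.4 CPM in control. Phgdh was singled out after its value was seen. Of 12 transfer RNA synthetases 2 were called higher, Eprs and Gars, at 1.54-fold and 1.51-fold (edgeR adjusted p = 0.0092 and 0.00664), while the list's median was -0.14 and Cars, the next by p, was not called. On TPM none of the 12 was called higher by limma and 6 were called lower, with neither Eprs nor Gars called. The counts were 1 and 3 on total counts, and the median was -0.25 without the low-Y libraries. Of 12 further regulators of the response 1 was called higher and 2 lower (median -0.23), namely the ER-bound transcription factor Creb3l1 at 2.21-fold higher, the IRE1 adaptor Traf2 at 1.55-fold lower and the pro-apoptotic Bcl2l11 (BIM) at 1.37-fold lower (edgeR adjusted p = 0.0216, 0.0261 and 0.0482). These 3 calls were lost under 8, 5 and 14 of 23 other settings. The list's split was 1 higher and 3 lower on total counts and 0 and 5 on TPM (median -0.58). With a replicate block in edgeR it was 0 and 0, against 897 and 567 over all genes. Without the low-Y libraries the list's median was -0.35.

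**Figure D3:**
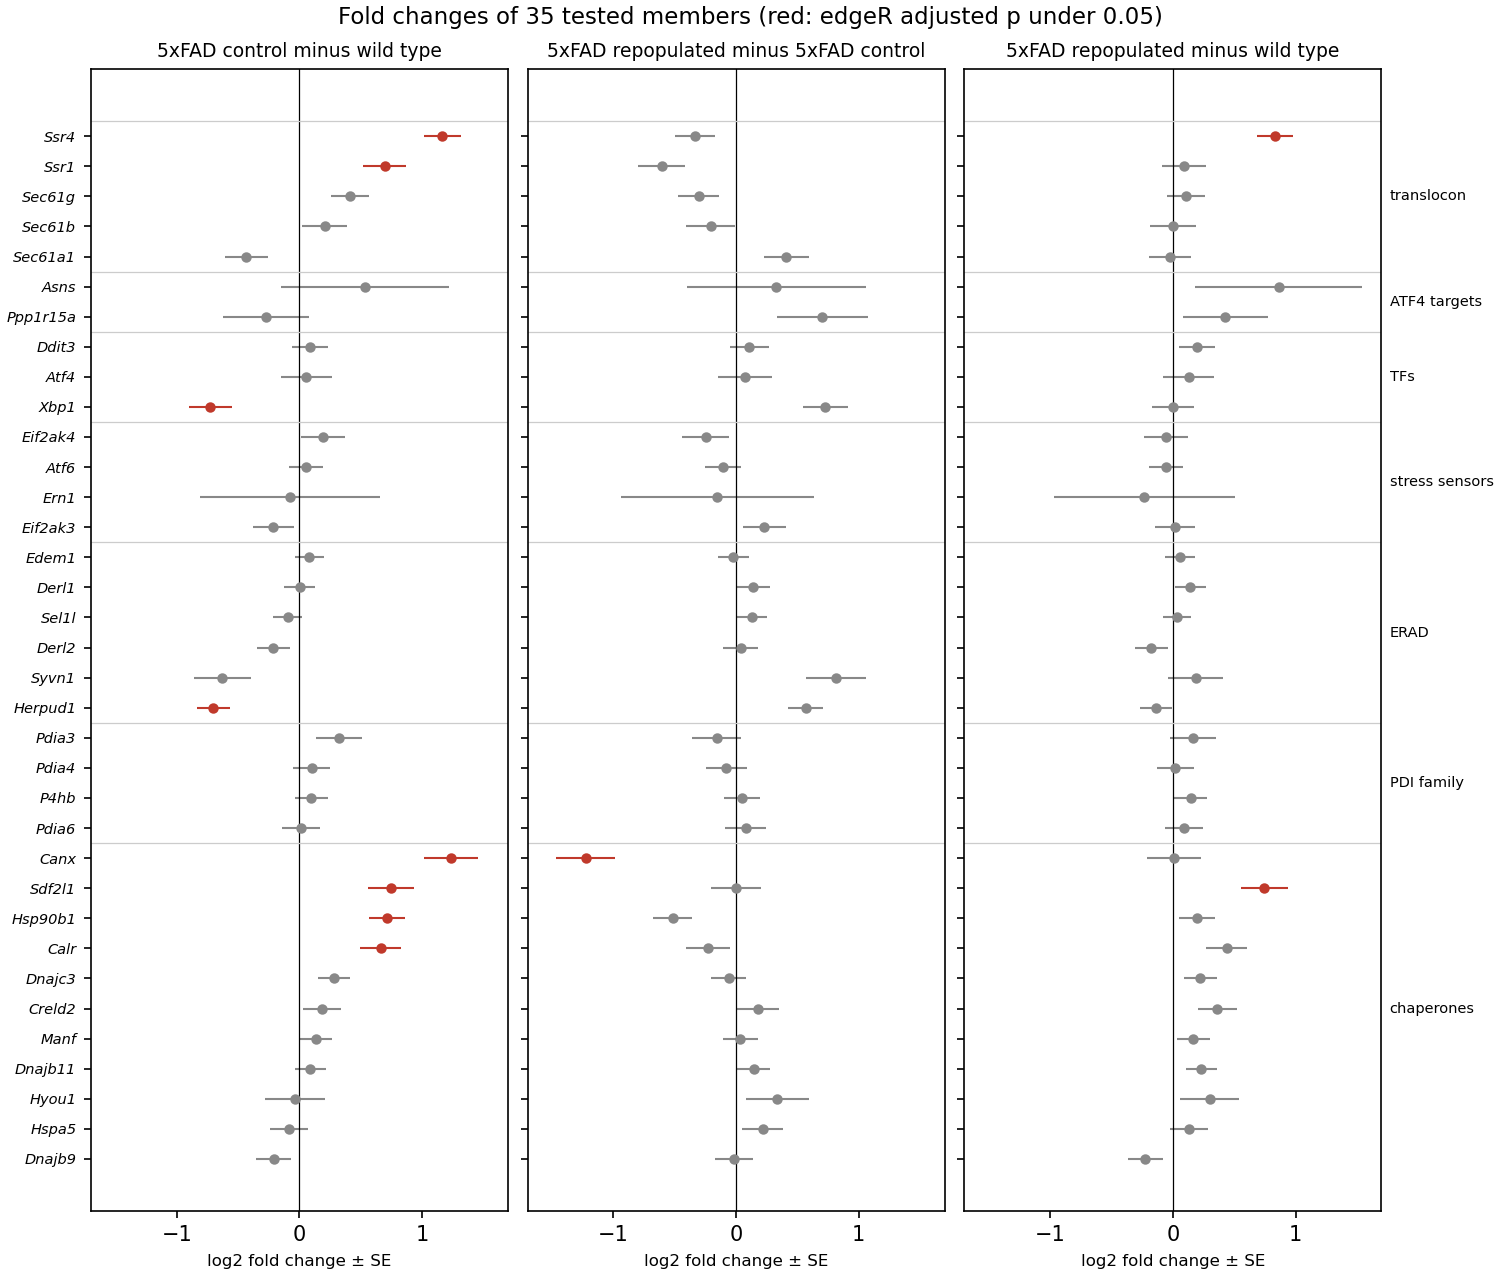
Log2 fold changes (points) with standard errors (bars) of the 35 tested members in the 3 comparisons, grouped by role, with members called by edgeR in red (PDI family, disulfide isomerases; ERAD, ER-associated degradation; TFs, transcription factors). Control against wild type has 8 red points, repopulated against control has Canx alone, and repopulated against wild type has Ssr4 and Sdf2l1.

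The second comparison asked how repopulated 5xFAD microglia differed from those of untreated 5xFAD mice. Canx was the 1 member called by edgeR, and it was lower. This is 2.9% of 35, against 0.568% of all genes tested (0.352% called higher and 0.216% called lower). The median log2 fold change was 0.04 over the members and 0.00 over all genes. An unadjusted edgeR p under 0.05 was found for 7 of 35 members and for 2317 of the 12505 genes tested. This comparison shares the 3 control libraries with the first, so the values of a member in both move with the same libraries.

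Canx stood at 4255, 3039.9 and 4522 CPM in repopulated 1 to 3, below every control library and within the wild-type range. It was 2.34-fold lower than in control (log2 fold change -1.23, SE 0.24, edgeR adjusted p = 0.0387). The call was lost under 8 of 23 other settings, among them leaving out control 1 (0.0836), control 2 (0.146), wild-type 4 (0.0538) or repopulated 1 (0.181), 2 (0.267) or 3 (0.0713). Leaving out repopulated 2 gave the highest of these adjusted p-values, and none of these settings changed the direction. Calls over all genes fell too, from 44 higher and 27 lower to 0 and 0 without repopulated 2. They fell to 2 and 2 without repopulated 1, 1 and 1 without control 1, and 2 and 2 without control 2.

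Xbp1 and Herpud1 were higher in repopulated libraries on average without passing edgeR's test. Xbp1 stood at 401, 372 and 335 CPM and Herpud1 at 568, 573 and 504 CPM, above every control library in both cases. The log2 fold changes were 0.73 (SE 0.18) and 0.57 (SE 0.14), each with an adjusted p of 0.0782 in edgeR. Under other settings Xbp1 was called in 7 of 23 and Herpud1 in 5, among them leaving out wild-type 3 (0.0407 and 0.0498) and DESeq2 (0.0064 and 0.00466). Both of these settings also called more of all genes, 206 higher and 122 lower without wild-type 3 and 329 and 369 with DESeq2, against 44 and 27. Hsp90b1 and Ssr1 stood lower, at 1511, 1352 and 1736 CPM and 1346, 1031 and 1557 CPM, with log2 fold changes of -0.52 and -0.61 (edgeR adjusted p = 0.123 and 0.127). Both sets of repopulated libraries lay below every control library. For Syvn1 the log2 fold change was 0.81 (SE 0.25, edgeR adjusted p = 0.1203).

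Calr, Sdf2l1 and Ssr4, which were called higher in control than in wild type, differed less from control. Calr stood at 557, 639 and 561 CPM, Sdf2l1 at 301, 321 and 307 CPM and Ssr4 at 224, 195 and 223 CPM in repopulated libraries. The log2 fold changes against control were -0.23 (SE 0.18), -0.00 (SE 0.20) and -0.34 (SE 0.16). Hspa5 stood at 1411, 1307 and 1399 CPM, with a log2 fold change of 0.22 (SE 0.17, edgeR adjusted p = 0.519). For Trib3 the pooled ratio of repopulated to control was 0.314 (95% interval 0.144 to 0.633, counting error alone), and for Chac1 it was 0.899 (0.323 to 2.46).

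Fold changes of repopulated against control followed the GC content of the transcript across 12226 genes (Spearman rho 0.436, a description over genes that share libraries), against -0.263 for control against wild type and 0.135 for repopulated against wild type. Canx, Hsp90b1 and Ssr1 have GC contents of 42.2%, 42.05% and 44.5%, and Xbp1, Herpud1 and Syvn1 52.98%, 52.97% and 56.6%. Among other members, Sec61a1 and Ppp1r15a, at 53.9% and 55.7%, had log2 fold changes of 0.41 and 0.70 in repopulated against control. Sec61g, at 44.6%, had -0.31. Calr, Sdf2l1 and Ssr4, also called higher in control than in wild type, have 50%, 56.7% and 51.6%. Their log2 fold changes in repopulated against control were -0.23, -0.00 and -0.34. Dnajb9 and Derl2, at 40.6% and 42.9%, had -0.02 and 0.04 there. These members are examples, and the relation was not computed over all members. The part of GC content in these changes was not tested. After a correction for GC content and length, chosen after seeing the data, the edgeR log2 fold changes were -1.03 for Canx (adjusted p = 0.0257), -0.33 for Hsp90b1, 0.59 for Xbp1 and 0.43 for Herpud1. In control against wild type the corrected values were 1.04 for Canx, -0.72 for Xbp1 and -0.71 for Herpud1, all called, and Dnajb9 (-0.431, edgeR adjusted p = 0.0118) and Derl2 (-0.375, 0.0361) became called lower.

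None of the 113 genes of the other lists was called by edgeR in repopulated against control. An unadjusted p under 0.05 was found for 28 of the 113, against 2317 of 12505 genes tested. With wild-type 3 left out 2 were called higher and 4 lower, while calls over all genes rose from 44 higher and 27 lower to 206 and 122. Without the low-Y libraries, with control 2 alone for its group, the lists' median log2 fold change was 0.16, against 0.04 over all genes. Nearest to the threshold among the genes already named were Ube2g2 (log2 fold change 0.85, edgeR adjusted p = 0.0517) and Atf3 (-0.67, 0.0662).

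The third comparison asked what separated repopulated 5xFAD microglia from wild type. Ssr4 and Sdf2l1 were called higher and no member was called lower. This is 5.7% of 35, against 4.18% of all genes tested (3.4% called higher and 0.784% called lower). An unadjusted edgeR p under 0.05 was found for 4 of 35 members and for 1884 of the 12505 genes tested. The median log2 fold change was 0.13 over the members and -0.02 over all genes.

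Ssr4 in repopulated libraries lay between control and wild type and above every wild-type library, 1.78-fold higher (log2 fold change 0.83, SE 0.15, edgeR adjusted p = 0.00361). The call was kept under all 23 other settings, with adjusted p-values from 1.92e-05 to 0.0251. Sdf2l1 lay above every wild-type library too, 1.68-fold higher (log2 fold change 0.74, SE 0.19, edgeR adjusted p = 0.0385), but 10 of 23 other settings did not keep its call (0.0611 to 0.159 there). These include leaving out wild-type 1 (0.0801) or 2 (0.11), control 1 (0.0615) and any 1 of the repopulated libraries (0.119 to 0.159). For Canx, Xbp1 and Herpud1 the log2 fold changes were 0.01 (SE 0.22), 0.00 (SE 0.17) and -0.14 (SE 0.13), and none was called. For Calr it was 0.44 (SE 0.17, edgeR adjusted p = 0.1995), and the repopulated libraries, at 557, 639 and 561 CPM, lay above all 4 wild-type libraries. Creld2, a co-factor of ER folding, had 0.36 and was called with wild-type 4 left out (edgeR adjusted p = 0.0424). Of the other lists 5 genes were called higher and none lower, namely Fkbp2, Ero1a, Ppib, Psat1 and Atf3, with folds of 1.7, 1.57, 1.35, 4.76 and 1.88. Ppib was called under 5 of 23 other settings and Ero1a under 18, while Fkbp2, Psat1 and Atf3 were called under all of them.

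**Figure D4:**
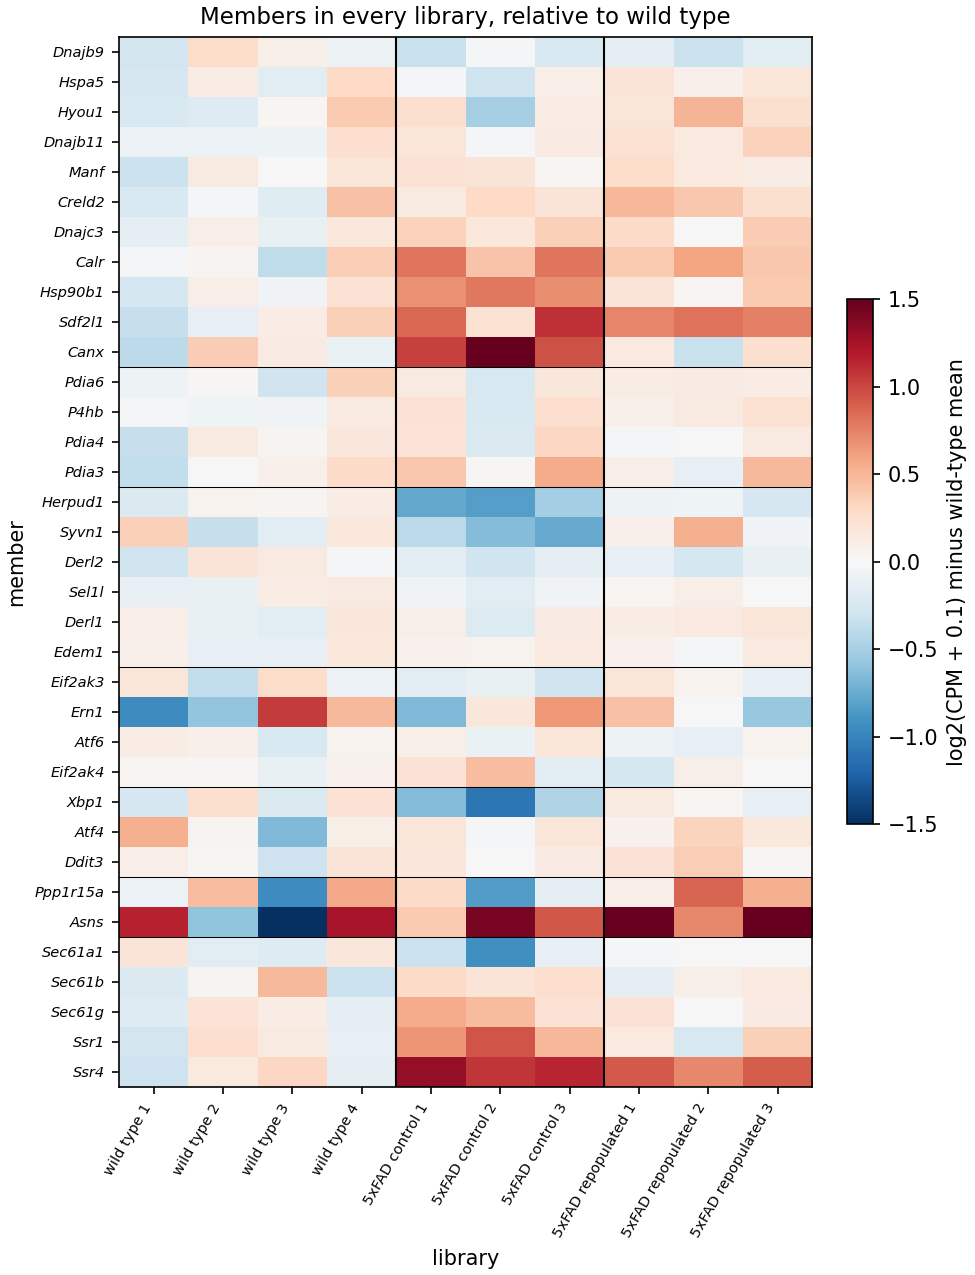
Each row is 1 of the 35 tested members and each column 1 library, with colour for log2(CPM + 0.1) minus the mean of the 4 wild-type libraries (red higher, blue lower, capped at 1.5) and lines between groups and roles. The 3 control columns are red for Canx, Hsp90b1, Ssr1 and Ssr4 and blue for Xbp1 and Herpud1, and the repopulated columns stay red for Ssr4 and Sdf2l1.

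Within groups the libraries were not alike for these genes. Wild-type 1 held the lowest level of its group in 20 of 35 members and wild-type 4 the highest in 21. Control 2, the 1 control library with Y-linked transcripts, held the lowest level of its group in 23 members, although it was the highest for Canx, Hsp90b1 and Ssr1. Control 2 also held more neutrophil marker RNA than the other control libraries (304.1 CPM summed over 8 genes, against 16.26 and 23.71 in control 1 and 3). Wild-type 2, the other low-Y library, held 32.24 CPM, and the remaining libraries 66.34 to 244.6 CPM. Monocyte marker RNA was 53.61 CPM over 5 genes in control 2, against 27.14 and 24.66 in control 1 and 3 and 31.1 to 59.42 in wild-type and repopulated libraries. The part of these markers in the levels of control 2 was not tested. Exons of Derl2, Manf, Pdia3, Pdia6, Ppp1r15a and Syvn1 overlap those of another gene of the table by 12 to 231 bases in GENCODE, and no strand setting is given for the counting, so reads there cannot be assigned with certainty. None of the 8 called members has such an overlap.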

How the data were processed

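RNA of CD45low CD11b+ hippocampal microglia was sequenced with a Smart-Seq protocol, per the labels. Per the file headers, the authors deposited estimated counts (expected counts), FPKM and TPM for 19782 genes in 10 libraries. Of the nonzero estimated counts deposited 20.1% are not whole (tolerance 0.001). The deposited TPM have nearly equal totals, and the deposited FPKM were not tested. HISAT, Bowtie2 and GRCm38.p6 are named in the submitters' processing notes, with quantifier, strand setting and versions not given in the sources used here.

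Estimated counts were rounded and tested with edgeR 4.0.16 (R 4.3.3, limma 3.58.1, DESeq2 1.42.0) over the whole table, with filterByExpr, TMM factors, robust dispersions, all 3 groups in 1 model, the default prior count and Benjamini-Hochberg adjustment at 0.05. The test was tested on simulated data. The SE of a log2 fold change was its size divided by the root of the F statistic. The biological coefficient of variation was 27.3%, and library totals ran from 18501136 to 23286814. TPM were tested in limma as log2(TPM + 0.1), where fold changes of low genes are understated. Intervals cover counting error only, since reads carry no molecular identifiers. The floor (3 counts) covers counting error of the 0 counts in wild type alone.

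The members and lists were chosen with earlier results of these data known. Levels are given library by library for members called in any comparison and for Hspa5, Hsp90b1, Atf6, Ern1, Eif2ak3, Atf4, Xbp1, Ddit3 and Trib3. Of each other list up to 3 genes with the smallest p in control against wild type are named, and others are named as called later or singled out. Alternatives were other normalisation factors, filters and tests, each library left out, a replicate block and the compared groups alone. Terms for Y-linked status, GC content with length, total counts and TPM were added after seeing the data, as was a fit without the 3 libraries low in Y-linked transcripts. That last fit leaves control 2 alone in its group and assumes that it varies like the other groups. Promoters are from RefSeq, GC content and lengths from GENCODE, and protein sequences were not used here. Reads could be split between near-identical gene copies by the estimated counts.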

Additional observations from a re-analysis of the deposited data

Results flagged for a closer look

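With 36 wild-type groups of 4 libraries examined, 1 for each member with any wild-type count, chance alone marks about 1 in 20. For 2 members 1 library lay far from the others. Dnajb11, a BiP co-chaperone, was at 184.13 CPM in wild-type 4, against 145.5 to 146.5 CPM in wild-type 1 to 3, so the gap was 0.974 of the range of the group, above Dixon's 95% critical value for 4 values. Trib3 was at 0.1348 CPM in wild-type 4 and at 0 in the other 3, a difference that rests on 3 counts.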

How the results depend on the processing

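In control against wild type the count of members called stayed within 1.5 times of 8 under every setting tried, from 6 to 9 with a library left out. Calls over all genes then ran from 834 higher and 481 lower (without control 1) to 1514 and 1396 (without wild-type 3). Canx, Ssr4, Hsp90b1, Xbp1 and Herpud1 kept their calls under all 23 settings that could change them, the highest adjusted p being 0.00711, 0.0147, 0.0414, 0.0498 and 0.034. In repopulated against control the count of 1 became 2 without a filter, 3 at an adjusted p under 0.1, on total counts, on TPM in limma or without the 3 libraries low in Y-linked transcripts, 4 with the compared groups alone, 5 with DESeq2, and 0 with Y-linked status as a term. With a library left out the count ran from 0 to 3. All-gene calls then ran from 0 and 0 (without repopulated 2) to 206 higher and 122 lower (without wild-type 3). Over all genes the calls of this comparison, 44 higher and 27 lower, moved too, to 95 and 71 without a filter, 172 and 22 on total counts, 141 and 11 on TPM, 234 and 154 without those 3 libraries, 339 and 291 of 11973 with the compared groups alone, 329 and 369 with DESeq2, and 0 and 1 with the Y-linked term. In repopulated against wild type the count of 2 became 1 on total counts, on TPM, with GC correction or without those 3 libraries, and 1 to 3 with a library left out. In that comparison calls over all genes were 425 higher and 98 lower. With a library left out they ran from 272 and 12 (without repopulated 2) to 582 and 106 (without wild-type 3). The cause was not tested. The labels do not say whether replicate numbers pair the libraries. Deviations of same-numbered libraries correlated at -0.105 to 0.071, against -0.109 to 0.129 for differently numbered ones. Such values across genes cannot exclude that same-numbered libraries were handled together. With a replicate block 7 members were called in control against wild type, Ssr1 being lost (edgeR adjusted p = 0.0527), and 0 in repopulated against control. Over all genes the block left 897 higher and 567 lower in control against wild type, and 13 and 12 in repopulated against control. Of 2619 fold changes of tested members under other settings 33 lost a call, 33 gained one and none reversed a called direction. Depth limits Ern1, Trib3, Chac1 and Asns, which had at most 64 counts in any library.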
